A study of Mus musculus with 4 samples.

Results

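Potassium channel subunits other than the Kcnd genes and the GIRK genes Kcnj3, Kcnj6 and Kcnj9 were examined in ribosome-bound RNA of Crh-expressing cells of the mouse prefrontal cortex and in the RNA of the whole tissue. Members were the genes whose symbols name Kv1, Kv beta, Kv2, Kv3, modifier, EAG, inward rectifier, tandem-pore-domain, BK, SK, Kv7 or sodium-activated subunits and that had at least 10 counts in at least 1 library. Of 24100 genes in the tables, 77 carried such a symbol and 62 reached that count. The count was reached just inside the limit by Kcnj14 (at most 18 counts in a library), Kcnj8 (20) and Kcna5 (28). Of the 15 genes outside it, Kcnmb1 and Kcna10 had at most 2 counts in a library, Kcnk5, Kcnn4, Kcnj5 and Kcnk15 had 1, and Kcna7, Kcnk7, Kcnj15, Kcnq1, Kcnj1, Kcnv2, Kcnk16, Kcnk18 and Kcnmb3 had none. The set is not wholly without A-type subunits, since Kcna4 and Kcnc4, which are known to give inactivating currents, meet the rule, and the GIRK gene Kcnj5 matched it by name but not by count.

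The data are translating ribosome affinity purification followed by RNA sequencing. The immunopurified (IP) libraries hold RNA bound to EGFP-tagged polysomes that anti-EGFP antibodies pulled down on magnetic beads, and the Input is RNA of the homogenized prefrontal cortex. There were 3 IP libraries and 1 Input library, each from 5 males of the Crh-IRES-Cre line of the Jackson Laboratory, where Cre follows the expression of Crh, the corticotropin-releasing hormone gene. All animals were untreated controls. The labels did not name the transgene that carries the tag, did not give an age, and left it unstated whether Input and IP shared animals or the 3 IP preparations had animals of their own. P-values therefore reflect library-to-library spread alone, some of which could be technical, and the lone Input has no replicate of its own.

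Total counts were 23548375, 10031072 and 12150980 in IP 1, 2 and 3, and 14474529 in the Input. Member counts made up 0.459%, 0.540% and 0.469% of these in the IP libraries and 0.510% in the Input. Levels are in CPM, counts divided by the TMM-adjusted library size, on which 1 count was worth 0.0436, 0.107 and 0.0862 CPM in the IP libraries and 0.0600 CPM in the Input. A level of 0 allows up to 3 counts, which is 0.131, 0.321 and 0.259 CPM in the IP libraries and 0.180 CPM in the Input, and such limits cover counting error only. Crh itself, the gene that drives Cre, was at 501, 174 and 193 CPM in the IP libraries, against 1.32 CPM in the Input (adjusted p = 9.43e-05, quasi-likelihood F test of edgeR with Benjamini-Hochberg adjustment). With limma-voom, an alternative test, Crh was not called (log2 fold 7.73, adjusted p = 0.425). Summed markers of GABAergic cells were at 2803, 2021 and 2708 CPM in IP, against 405 CPM in the Input, and all 3 Vip-class markers passed the test upward. Sst-class markers summed to 950, 860 and 1078 CPM in IP, against 377 CPM. Of these 3 markers, 2 lay above the Input in each IP library (1 called higher). Excitatory markers summed to 3286, 6284 and 5008 CPM in IP, against 5286 CPM in the Input, and 6 of 8 were below the Input in each IP library (2 called lower). Astrocyte markers summed to 1651, 2833 and 1808 CPM, against 2673 CPM. Endothelial markers, 8 of 8 above the Input in every IP library, summed to 128, 478 and 217 CPM, against 34.0 CPM in the Input. Of all genes tested, 19.7% lay above the Input in each IP library and 24.1% below it, and 0.417% were called higher and 0.0479% lower. Microglial markers, 7 of 8 below the Input in each IP library, summed to 23.1, 22.8 and 36.6 CPM, against 86.3 CPM. Oligodendrocyte markers, 3 of 6 below and 1 above, summed to 318, 499 and 449 CPM, against 683 CPM. The part of these other cells in the members' values was not tested. In RNA of many cells, fewer cells of a type and less RNA per cell cannot be told apart.

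Potassium channels are membrane proteins that let potassium leave or enter a cell and so set its resting potential, the shape of its action potentials and the rate at which it fires. Most voltage-gated, calcium-activated and sodium-activated channels are tetramers of pore-forming alpha subunits, inward rectifiers have a simpler subunit built around the same pore, and tandem-pore-domain channels are dimers whose subunits each carry a pair of pore loops. Auxiliary beta subunits and electrically silent modifier subunits change gating and surface delivery. In cortex, Kv3 channels are known for the brief spikes of fast-firing interneurons, Kv1 channels for the axon and its initial segment, and Kcnj10 for potassium uptake by astrocytes.

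What the pore-forming members share is the selectivity filter, whose coding sequence is shown here for subunits that the comparisons below turn on. The motif searched was GGN, then TAC, TAT, TTC or TTT, then GGN, in frame and on the coding strand only, which spells glycine, tyrosine or phenylalanine, glycine. Each line gives 27 bases 5′ to 3′ on the coding strand (GRCm38, GENCODE M21 coding sequence), with the 9 bases of the motif in capitals.

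Kcna1 (chr6:126642222-126642248, minus strand): atgaccactgtgGGATACGGTgacatg

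Kcna2 (chr3:107105218-107105244, plus strand): atgacaactgtaGGCTATGGAgacatg

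Kcnc1 (chr7:46427967-46427993, plus strand): atgacgacactgGGCTATGGAgacatg

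Kcnf1 (chr12:17175055-17175081, minus strand): atgaccacagtgGGCTATGGTgacatc

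Kcnv1 (chr15:45109283-45109309, minus strand): atgactacagtaGGATATGGGgacatt

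Kcnh4 (chr11:100750287-100750313, minus strand): ctcaccagtgtaGGCTTCGGCaacgtg

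Kcnma1 (chr14:23528407-23528433, minus strand): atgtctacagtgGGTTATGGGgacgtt

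Kcnt2 (chr1:140425272-140425298, plus strand): ttttctactgtgGGCTTTGGGgatgtc

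Kcnj10 (chr1:172369296-172369322, plus strand): cagaccaccatcGGCTATGGCttccgc

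All 57 pore-forming members held the motif and none of the 5 auxiliary members (Kcnab1, Kcnab2, Kcnab3, Kcnmb2 and Kcnmb4) did, while 2893 of 21584 genes with a coding sequence did (13.4%). With a threonine codon ACN as the second codon before it, separated by any 1 codon, the motif was in 46 of 57 pore-forming members and in 229 of all genes (1.06%). A match is a string of codons and not proof of a filter: Kcnh4 held the shorter motif at another place as well, and the stretch shown is the second match. The silent modifiers Kcnf1 and Kcnv1 spelled the same glycine, tyrosine, glycine as the conducting Kv subunits, and the phenylalanine form stands in Kcnh4 and Kcnt2 among those shown.

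No member passed the test between IP and Input. Of 14628 genes tested, 0.417% were called higher in IP and 0.0479% lower (edgeR, adjusted p under 0.05), and of the 62 members, all of which passed the filter on low counts, 0 were called in either direction. At an unadjusted p under 0.05, 1 member was higher (Kcnc1), against 3.21% of all genes, and 0 were lower, against 1.23%. DESeq2 and limma-voom called 0 members after adjustment as well, where 1.15% and 0.246% of all genes were called higher and 0.0820% and 0.0957% lower. Crh was called by DESeq2 and not by limma-voom. At an unadjusted p under 0.05, DESeq2 had 3 members higher (Kcna4, Kcnc1 and Kcnmb2; 4.58% of all genes) and 0 lower (0.868%). Under the same limit limma-voom had Kcnc1 higher (2.71% of all genes) and Kcnj10 lower (2.94%). The adjusted p of edgeR was 0.831 for Kcnc1 and 1 for each of the other 61 members, so each log2 fold below is given with its standard error (SE) or 95% interval and is not a call.

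Members lay on both sides of the Input. All 3 IP libraries were above the Input for 15 members (24.2%) and below it for 12 (19.4%), beside 19.7% and 24.1% of all genes tested. The fitted log2 fold of IP over Input lay within 1 of 0 for 45 of 62 members (72.6%), beside 69.5% of all genes. It was at 1 or more for 8 members, beside 14.8% of all genes, and at -1 or less for 9, beside 15.7%. At a mean of at least 20 CPM, 27 of 33 members lay within 1 of 0 (81.8%, beside 84.8% of all such genes), 13 had all IP libraries above the Input (39.4%, beside 32.5%) and 5 had all below it (15.2%, beside 14.8%). The median log2 fold was 0.028 over the members and 0.083 over all genes tested. The 62 members together summed to 4709, 5795 and 4909 CPM in IP, against 4430 CPM in the Input. Summed per kb of exon they also lay above the Input in each IP library (637, 795 and 637 CPM per kb, against 617), but with upper-quartile factors they were at 621, 751 and 617, against 691 CPM per kb, and with library totals at 621, 741 and 608, against 712 CPM per kb. With 3 libraries against 1, an exact permutation test of a single gene cannot go below 0.25 one-sided.

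**Figure D1:**
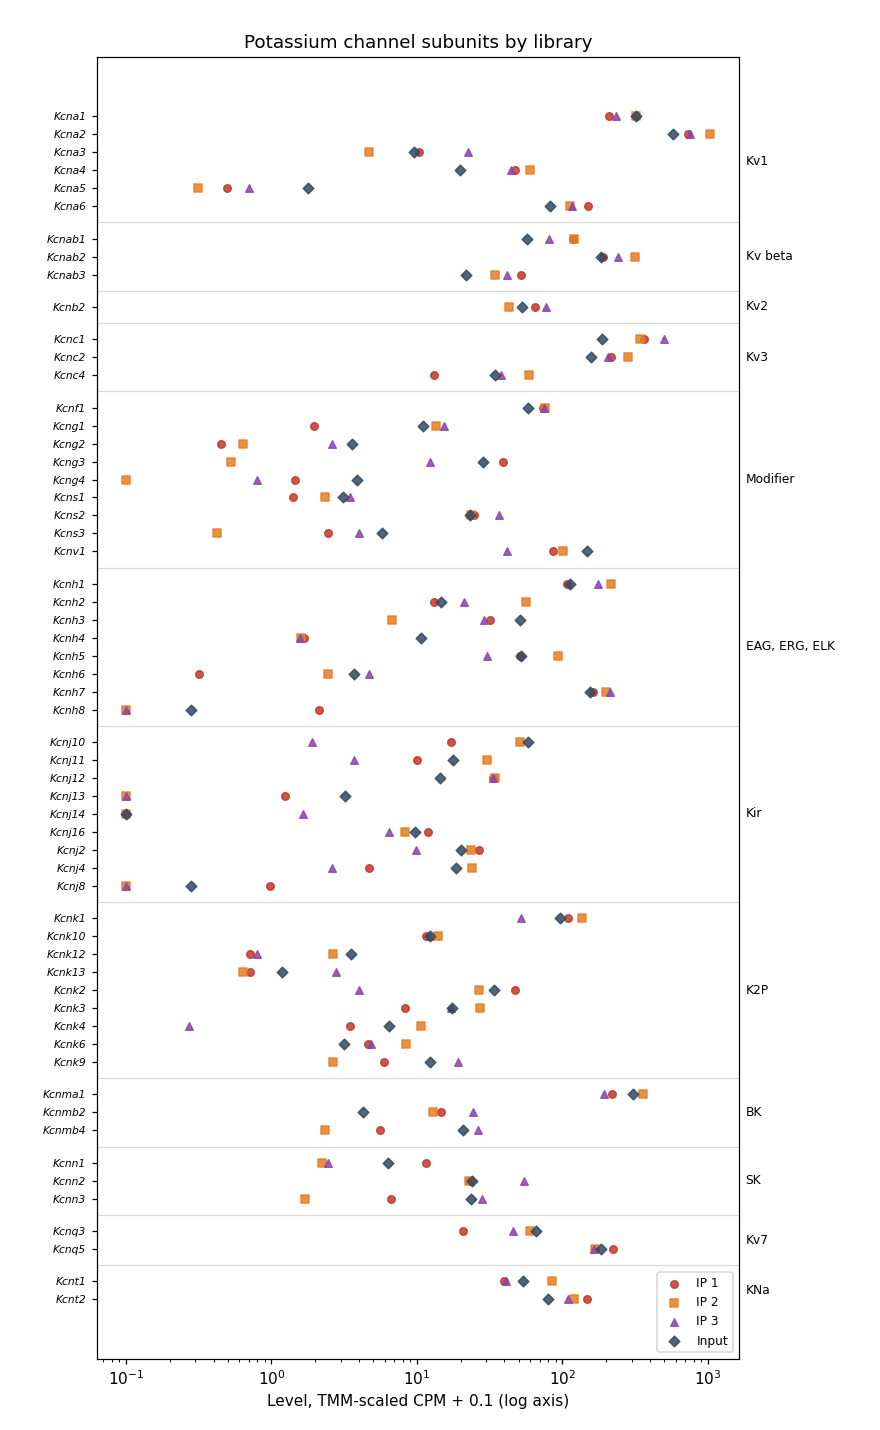
Level of 58 members in IP 1, IP 2, IP 3 and the Input, as CPM plus 0.1 on a log axis, grouped by subfamily. The Input of Kcnc1 (188 CPM) and Kcnj12 (14.4 CPM) lies left of all 3 IP libraries, that of Kcnv1 (148 CPM) and Kcnh4 (10.6 CPM) right of them.

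Kv1 subunits form low-threshold channels of axons and nerve terminals. Kcna2, an axonal Kv1 alpha subunit, was at 731, 1035 and 751 CPM in IP, against 574 CPM in the Input. Kcna1, its frequent partner in heteromers, was at 209, 319 and 233 CPM in IP, against 319 CPM in the Input. The IP libraries of Kcna2 all lay above the Input, whereas for Kcna1 IP 2 was level with the Input to within 1 CPM and the others lay below it. The log2 folds were 0.55 ± 0.37 for Kcna2 (95% interval -0.22 to 1.32) and -0.33 ± 0.41 for Kcna1 (-1.20 to 0.53). Kcna4, whose channels inactivate fast, was at 46.8, 59.4 and 44.2 CPM in IP, against 19.8 CPM in the Input, with a log2 fold of 1.34 ± 0.81 (-0.36 to 3.04). Its lowest IP library was more than 2-fold above the Input. Kcna6 was at 151, 112 and 116 CPM in IP, against 82.4 CPM in the Input, all above it, but 39.6% of its exonic bases also lie in a gene on the opposite strand, and the strand of counting was not given in the sources used here. Kcna3 ran from 4.60 to 22.2 CPM in IP, on both sides of its Input (9.42 CPM), and Kcna5 was under 1 CPM in each IP library, with 1.68 CPM in the Input.

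Kv beta subunits are cytoplasmic partners of Kv1 alpha subunits that promote their delivery and, for some, close the pore from the inside. Kcnab1, an inactivating beta subunit, was at 118, 121 and 80.7 CPM in IP, against 57.1 CPM in the Input. Kcnab2, which aids axonal targeting of Kv1, was at 189, 314 and 240 CPM, against 184 CPM. Kcnab3 was at 52.0, 34.4 and 41.6 CPM, against 21.7 CPM. All 9 IP values thus lay above their Input, although the lowest of Kcnab2 fell under its Input when libraries were scaled by upper quartile or by their totals. The log2 folds were 0.90 ± 0.59 for Kcnab1, 0.43 ± 0.45 for Kcnab2 and 0.98 ± 0.83 for Kcnab3. Each interval included 0, the widest being -0.76 to 2.71 for Kcnab3.

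Kv2 subunits carry delayed rectifier current of the soma and proximal dendrites. Kcnb2 was at 65.1, 42.9 and 77.3 CPM in IP, against 53.1 CPM in the Input, on both sides of it, with a log2 fold of 0.22 ± 0.67 that was at -0.050 when libraries were scaled by their totals.

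Kv3 subunits open at high voltages and close fast, which permits high firing rates. Kcnc1 was at 365, 342 and 498 CPM in IP, against 188 CPM in the Input (95% counting interval 182 to 195). Every IP library was above the Input, the lowest by more than 1.5-fold. Its log2 fold of 1.09 ± 0.43 (95% interval 0.20 to 1.99) had an unadjusted p of 0.0194 and an adjusted p of 0.831, which ran from 0.168 to 1 over the alternatives tried, with log2 folds of 0.82 to 1.20. Kcnc2 was at 216, 281 and 206 CPM in IP, against 158 CPM in the Input, again with all 3 above, and a log2 fold of 0.57 ± 0.45 (-0.37 to 1.5). Kcnc4 was at 13, 58.5 and 37.6 CPM in IP, against 34.5 CPM in the Input, with IP 1 below the Input and the other IP libraries above it. Kv3 is a known feature of Pvalb interneurons, and markers of that class summed to 6.63, 42.8 and 25.5 CPM in IP, against 41.5 CPM in the Input, with Pvalb itself at 2.22, 21.9 and 4.83 CPM, against 20.3 CPM. Of the other markers of the class, Syt2 was at 1.66, 20.6 and 4.66 CPM in IP, against 10.8 CPM, and Tac1 at 2.75, 0.214 and 16 CPM, against 10.4 CPM. The part of Pvalb-class cells, or of Sst-class cells, whose summed markers were higher in IP, in the level of Kcnc1 was not tested.

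**Figure D2:**
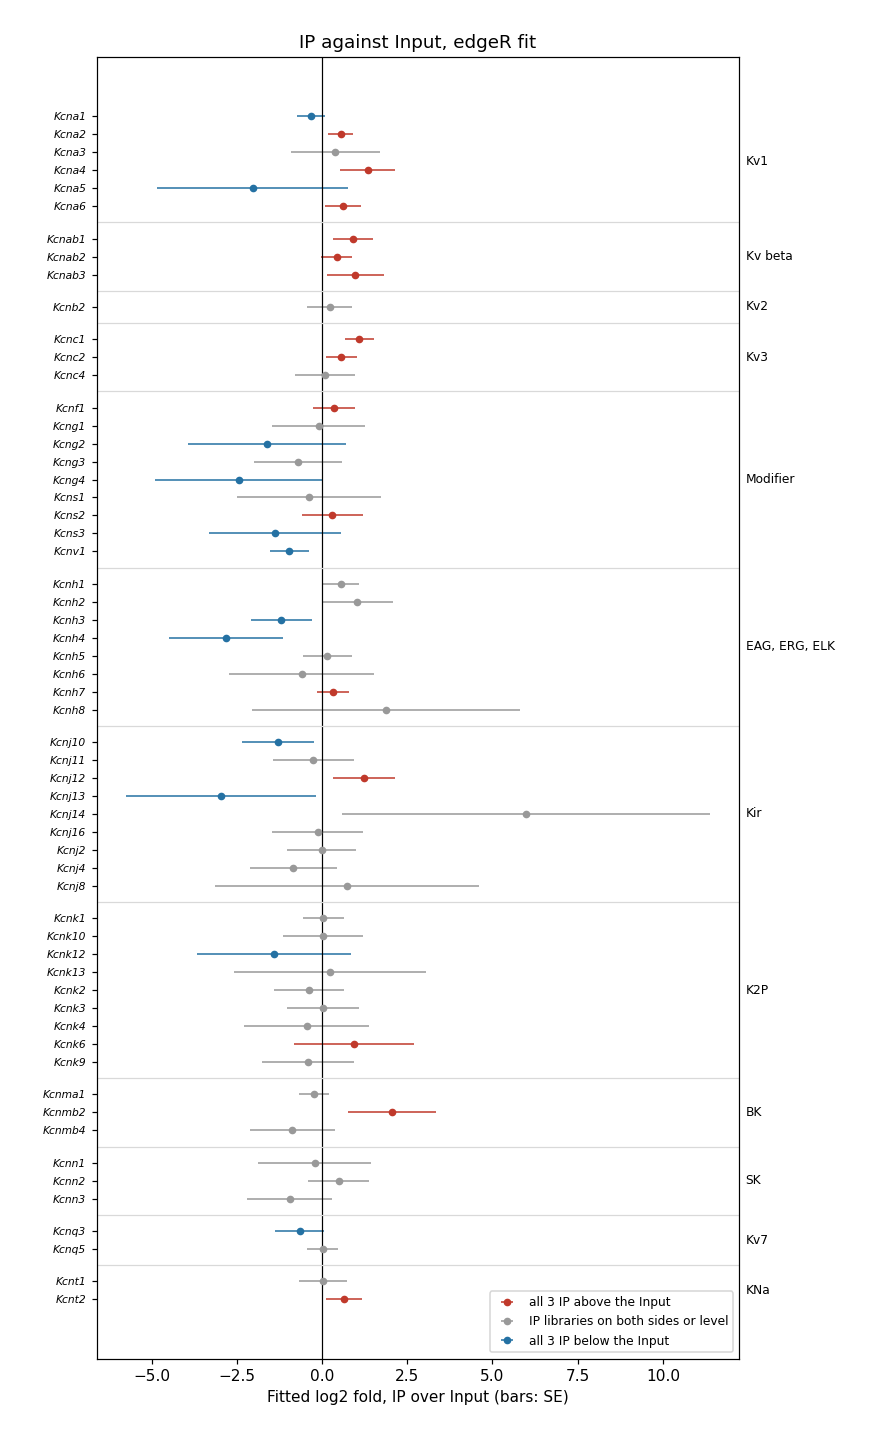
Fitted log2 fold of IP over Input for 58 members, with bars of 1 SE, coloured by whether all 3 IP libraries lay above the Input (15 members), below it (12) or neither. Bars are shortest for abundant members (0.37 for Kcna2) and longest for Kcnj14, counted in a single library.

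Electrically silent subunits of the Kv5, Kv6, Kv8 and Kv9 groups conduct only with Kv2 partners. Kcnv1 was at 85.8, 101 and 41.6 CPM in IP, against 148 CPM in the Input, below it in every IP library, with a log2 fold of -0.96 ± 0.57 (95% interval -2.15 to 0.23). Kcnf1 was at 73.6, 75.8 and 75.0 CPM in IP, against 58.3 CPM in the Input, with a log2 fold of 0.36 ± 0.62. These silent subunits thus lay on opposite sides of the Input, and the IP libraries of Kcnf1 were within 3 CPM of each other. Kcns2 was at 24.7, 23.5 and 36.6 CPM, against 22.9 CPM, and its IP 2 value was within 1 CPM of the Input. Kcns3 was at 2.35, 0.321 and 3.88 CPM, against 5.70 CPM, and Kcng2 and Kcng4, both under 4 CPM in the Input, also lay below it in all IP libraries. Kcng1, Kcng3 and Kcns1 had IP values on both sides. The median log2 fold of these 9 genes was -0.70, with 2 above, 4 below and 3 mixed. That median was -1.08 without IP 1, -0.37 without IP 2 and -0.21 at a mean of at least 5 CPM, where fewer of the genes were tested.

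EAG, ERG and ELK channels (Kcnh genes) are voltage-gated channels with a domain that resembles a cyclic nucleotide binding domain. Kcnh7, an ERG subunit, was at 162, 198 and 214 CPM in IP, against 154 CPM in the Input, with a log2 fold of 0.32 ± 0.46. Kcnh1, an EAG subunit, was at 107, 216 and 176 CPM, against 113 CPM, with IP 1 below the Input. Kcnh4, an ELK subunit, was at 1.57, 1.5 and 1.47 CPM in IP, against 10.6 CPM in the Input, from 36, 14 and 17 counts against 177. The IP libraries were within 0.2 CPM of each other and all below the counting interval of the Input (9.11 to 12.3 CPM). Its log2 fold was -2.81 ± 1.67 (95% interval -6.30 to 0.69) and its unadjusted p 0.109. Kcnh3, another ELK subunit, was at 31.7, 6.63 and 28.8 CPM, against 51.1 CPM, also below in all. Kcnh5 and Kcnh2 had IP values on both sides of their Input, with IP 2 highest in each (92.7 and 55.8 CPM). Kcnh6 stayed under 5 CPM everywhere, and Kcnh8 had 46 counts in IP 1, 0 in the other IP libraries and 3 in the Input.

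Kv7 subunits carry the M-current, a slow current that muscarinic receptors close. Kcnq5 was at 223, 168 and 165 CPM in IP, against 183 CPM in the Input, with IP 1 above the Input and the other IP libraries below it. Its log2 fold of 0.017 ± 0.45 turned negative when libraries were scaled by their totals (-0.25). Kcnq3, another subunit of M-channels, was at 20.7, 59.4 and 45.7 CPM in IP, against 66.2 CPM in the Input, below in all, with a log2 fold of -0.66 ± 0.73.

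Sodium-activated channels give slow afterhyperpolarization after bursts. Kcnt2 was at 147, 120 and 110 CPM in IP, against 79.9 CPM in the Input, above it in all, with a log2 fold of 0.65 ± 0.53 (95% interval -0.46 to 1.76). Kcnt1 was at 39.9, 84.4 and 41.1 CPM, against 53.9 CPM. Here only IP 2 lay above the Input, and the log2 fold of 0.031 ± 0.71 turned negative under 5 of the 12 alternatives.

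BK channels respond to voltage and calcium together and shorten spikes. The pore subunit Kcnma1 was at 221, 361 and 193 CPM in IP, against 308 CPM in the Input, on both sides, with a log2 fold of -0.25 ± 0.44. Kcnmb2, a beta subunit that makes BK current inactivate, was at 14.6, 12.7 and 24.1 CPM in IP, against 4.14 CPM in the Input (counting interval 3.22 to 5.24). Each IP library was more than 3-fold above the Input, with a log2 fold of 2.05 ± 1.30 (95% interval -0.67 to 4.76) and an unadjusted p of 0.131. Kcnmb4, the beta subunit best known from neurons, was at 5.45, 2.25 and 26.1 CPM, against 20.6 CPM, with 31.5% of its exonic bases shared with an annotated neighbour. Only IP 3 lay above the Input.

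SK channels are opened by calcium through bound calmodulin and carry the medium afterhyperpolarization. Kcnn2 was at 23.1, 22.8 and 54.6 CPM in IP, against 23.8 CPM in the Input, and Kcnn3 at 6.54, 1.60 and 28.0 CPM, against 23.3 CPM. In both genes only IP 3 was above the Input. The log2 folds were 0.49 ± 0.90 for Kcnn2 and -0.95 ± 1.24 for Kcnn3. Without IP 3 that of Kcnn2 turned to -0.052, while that of Kcnn3 became more negative, at -2.51. Kcnn1 was at 11.5, 2.14 and 2.33 CPM, against 6.24 CPM.

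Inward rectifiers pass potassium more easily into the cell than out of it. Kcnj10, the main inward rectifier of astrocytes, was at 17, 51.1 and 1.81 CPM in IP, against 57.5 CPM in the Input. All IP libraries lay below the Input, but they differed 28.2-fold among themselves, and the log2 fold was -1.30 ± 1.05 (95% interval -3.51 to 0.90). The fold was -2.60 without IP 2, -0.76 without IP 3 and -2.28 with limma-voom. Of the astrocyte markers 7 of 8 were lower than the Input in each IP library, beside 24.1% of all genes tested. The markers did not share an order of the IP libraries. Aqp4, the astrocyte water channel, was at 57.0, 54.4 and 6.38 CPM in IP, against 57.4 CPM in the Input. Gfap, an intermediate filament gene, was at 0.61, 1.18 and 7.59 CPM in IP, against 13.3 CPM. The glutamate transporter Slc1a3 was at 30.2, 74.4 and 45.7 CPM in IP, against 89.7 CPM. Sox9 had the order of Kcnj10, at 17.7, 26.1 and 10.1 CPM in IP, against 49.2 CPM. Gja1 was also lowest in IP 3, at 15.7, 6.42 and 3.1 CPM, against 26.5 CPM. Aldoc, Aldh1l1 and Slc1a2 had IP 1 lowest, as Slc1a3 did. Kcnj12, a strong inward rectifier that is known from heart, muscle and neurons, was at 33.5, 34.5 and 33.3 CPM in IP, against 14.4 CPM in the Input (counting interval 12.6 to 16.3). Its IP libraries were within 2 CPM of each other and each more than 2-fold above the Input, with a log2 fold of 1.23 ± 0.92 (-0.69 to 3.15). Kcnj2, Kcnj4, Kcnj11 and Kcnj16 had IP values on both sides of their Input. Kcnj11, the pore of neuronal ATP-sensitive channels, was at 9.94, 30.3 and 3.62 CPM, against 17.5 CPM, and its receptor subunit gene Abcc8 at 10.1, 19.9 and 13.8 CPM, against 13.5 CPM. Kcnj8, the pore of the ATP-sensitive channel of mural cells, had 20 counts in IP 1, 0 in the other IP libraries and 3 in the Input, while its partner Abcc9 was at 10.7, 12.2 and 3.79 CPM in IP, against 2.82 CPM. Mural cell markers summed to 162, 375 and 239 CPM in IP, against 80.1 CPM in the Input. Of these markers 4 of 8 lay above the Input in each IP library, beside 19.7% of all genes tested. Kcnj13 had 26, 0 and 0 counts in IP and 52 in the Input, and 49.1% of its exonic bases lie within another gene. Kcnj14 was counted in IP 3 only (18 counts).

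Tandem-pore-domain channels are open at rest and set the leak of potassium. Kcnk1, a weak inwardly rectifying leak subunit, was at 109, 137 and 51.6 CPM in IP, against 96.5 CPM in the Input, and Kcnk2, a leak channel opened by stretch and lipids, at 47.5, 26.6 and 3.88 CPM, against 33.8 CPM. Their IP libraries lay on both sides of the Input, with IP 3 lowest in each. The log2 fold of Kcnk1 (0.036 ± 0.60) was negative in 6 of 12 alternatives, and that of Kcnk2 (-0.38 ± 1.03) was 0.13 without IP 3. Kcnk6 was at 4.49, 8.34 and 4.74 CPM in IP, against 3.06 CPM in the Input, above it in all, with a log2 fold of 0.93 ± 1.76. The acid-sensitive leak subunits Kcnk3 and Kcnk9 were mixed, at 8.20, 27.2 and 17.1 CPM, against 17.2 CPM, and at 5.84, 2.57 and 19.1 CPM, against 12.2 CPM. Kcnk10 was level, at 11.4, 13.8 and 12.1 CPM in IP, against 12.2 CPM. Kcnk12 lay below its Input (3.42 CPM) in all IP libraries, and Kcnk4 and Kcnk13 were mixed at low levels.

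Levels of different genes were set beside each other per length of exon. That length is the union of annotated exons and not the length of the transcripts present, so the ranks are approximate. Per kb, Kcna2 had the highest mean of the IP libraries, 70.5 ± 14.3 CPM per kb (SD, n = 3), against 48.2 CPM per kb in the Input, where it stood second. Kcna1 followed with 53.0 ± 12.1 CPM per kb in IP, against 66.8 CPM per kb in the Input, where it stood first. Kcnab2, Kcnk1 and Kcnc1 stood at ranks 4, 5 and 6 in IP, with means of 44.4 ± 11.3, 44.3 ± 19.4 and 42.4 ± 8.91 CPM per kb. Among these genes, from Kcna1 to Kcnc1, each differed from the one listed after it by less than the SD of the IP libraries. The 10 highest members held 58.5% of the summed level per kb in IP and 57.7% in the Input, and 9 genes were in both top groups. The gene that differed was Kcnv1, sixth in the Input (32.2 CPM per kb) and at rank 13 in IP (16.6 ± 6.69 CPM per kb), while Kcnh1 stood at rank 10 in IP and rank 12 in the Input. Kcnc1 was at rank 6 in IP and rank 9 in the Input (19.9 CPM per kb), and Kcna4 at rank 22 and rank 35. Across the 62 members, Pearson correlations of log2(CPM + 0.5) were 0.856 to 0.891 among the IP libraries. Between an IP library and the Input they were 0.879 to 0.925. In each pair the values of a gene share its length.

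**Figure D3:**
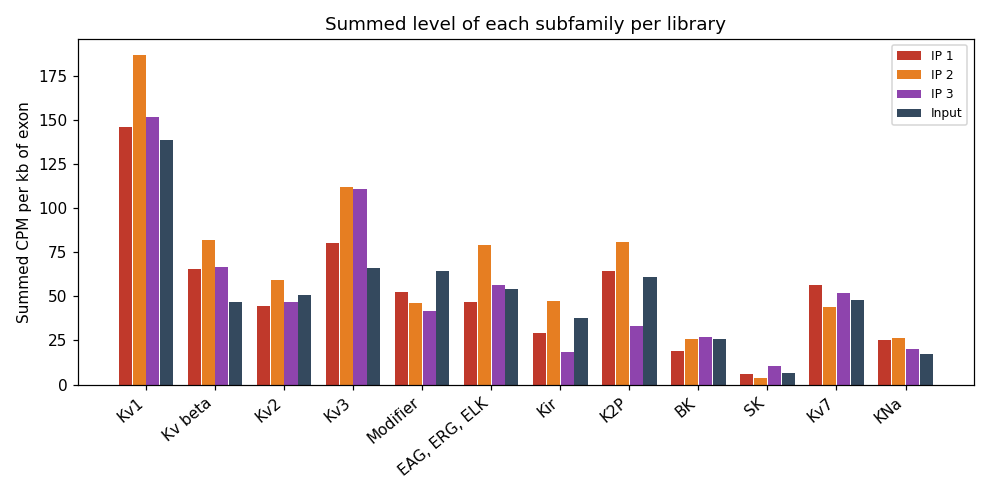
Summed level of the members of each subfamily, as CPM per kb of exon, in IP 1, IP 2, IP 3 and the Input. Kv beta and Kv3 stand above the Input in each IP library, the modifiers below it, and the inward rectifiers and tandem-pore-domain subunits on both sides, with IP 2 highest and IP 3 lowest.

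Summed per kb, Kv3 was at 80.5, 112 and 111 CPM per kb in IP, against 66.0 CPM per kb in the Input, and Kv beta at 65.7, 82.3 and 67.0, against 47.1 CPM per kb. Modifiers were at 52.3, 46.2 and 41.8 CPM per kb in IP, against 64.4 CPM per kb in the Input. These 3 sums kept their side of the Input in every IP library under RLE, upper-quartile and library-total scaling. Kv1 and sodium-activated sums, also above the Input in each IP library under TMM, did not: with library totals Kv1 was at 142, 175 and 145 CPM per kb in IP, against 160 CPM per kb, and the sodium-activated pair at 24.9, 24.5 and 19.3, against 19.9 CPM per kb. Inward rectifiers ranged from 18.5 to 47.7 CPM per kb in IP, with 37.8 CPM per kb in the Input, and tandem-pore-domain subunits from 33.5 to 81.0, with 61.0 CPM per kb. The range within IP exceeded the distance to the Input for both.

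The share of a gene in the counts of its own subfamily does not depend on library scaling. Kcna2 took 63.7%, 67.7% and 64.4% of Kv1 counts in IP, against 57.0% in the Input (exact 95% interval 56.3 to 57.8%), and Kcna1 18.2%, 20.8% and 20%, against 31.7% (31.0 to 32.4%). Kcna4 took 4.08%, 3.88% and 3.79% in IP, against 1.97% (1.76 to 2.19%). Within Kv1 the IP libraries therefore lay together and apart from the Input for these genes. Kcna6 took 13.2%, 7.3% and 9.9% in IP, against 8.18%, on both sides of the Input, and Kcna3 was mixed too. Shares within a subfamily depend on each other, so a rise of some lowers the others. Of the modifiers, Kcnf1 took 31.9%, 35.0% and 39.3% in IP, against 20.5%, and Kcnv1 37.2%, 46.4% and 21.8%, against 52.0%. Kcnmb2 took 6.05%, 3.38% and 9.91% of BK counts in IP, against 1.25% (0.970 to 1.57%), and Kcnh4 0.425%, 0.261% and 0.308% of Kcnh counts, against 2.66% (2.29 to 3.08%). Kcnc1 took 56.7%, 42.5% and 58.2% of Kv3 counts, against 40.2% (39.1 to 41.3%), and the IP 2 value was within 3 percentage points of the Input. Kcnj12 took 31.8%, 20.1% and 56.6% of inward rectifier counts, against 10.2%, and Kcnj10 16.1%, 29.8% and 3.08%, against 40.8%. Kcnn2 took 56.1%, 85.9% and 64.3% of SK counts, against 44.5%. The genes listed here are mostly those whose IP shares fell on a single side of the Input. Other members had IP shares on both sides of it, among them Kcnc2, Kcnh7, Kcnk1, Kcnma1, Kcnq5 and Kcnt2. Intervals cover counting error of 1 library and not the spread between Input preparations, which these data do not show.

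**Figure D4:**
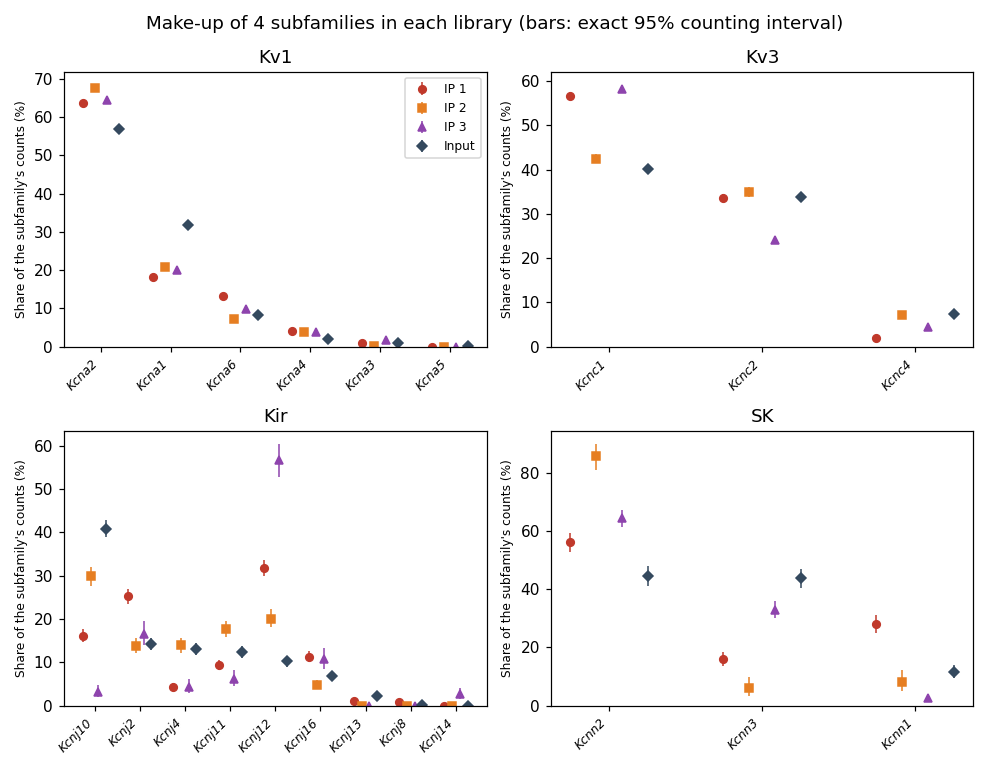
Share of single genes in the counts of their subfamily, in percent with exact 95% counting intervals, for Kv1, Kv3, the inward rectifiers and SK in IP 1, IP 2, IP 3 and the Input. The IP shares of Kcna1 (18.2 to 20.8%) lie under the Input (31.7%), and those of Kcnj12 (20.1 to 56.6%) over it (10.2%) but far apart.

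The IP libraries differed from each other more in some subfamilies than in others. Of 47 members with at least 10 CPM in an IP library, 11 (23.4%) had a highest IP level more than 5 times the lowest, beside 17.7% of all such genes. These were Kcng1, Kcng3, Kcnj4, Kcnj10, Kcnj11, Kcnk2, Kcnk4, Kcnk9, Kcnmb4, Kcnn1 and Kcnn3, and none was a Kv1, Kv2, Kv3, Kv7 or Kcnh subunit. Kcng3 had the widest range, at 39.2, 0.428 and 12.2 CPM in IP, against 28.3 CPM in the Input. IP 1 was the highest library for 3 of the 11, IP 2 for 4 and IP 3 for 4. The median coefficient of variation over the IP libraries was 46.4% for the members and 51.5% for all genes tested, and at a mean of at least 20 CPM it was 25.5% and 32.3%.

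Among 26 genes of proteins known to bind these channels, 21 could be tested and 1 was called, beside 0.465% of all genes tested in either direction, and their median log2 fold was 0.17, beside 0.083. Ank3, which encodes ankyrin-G, the anchor of Kv7 channels at the axon initial segment, was at 945, 1450 and 1513 CPM in IP, against 371 CPM in the Input. It rose in IP, by 1.81 ± 0.40 on the log2 scale (edgeR adjusted p = 0.0452), and each IP library was more than 2.5-fold above the Input. The call ended with limma-voom (adjusted p 0.0540), upper-quartile factors (0.0985), library totals (0.108), a minimum mean of 5 CPM (0.0842) or without IP 3 (0.0770), over a range of 2.63e-08 to 0.108. Calm2, a gene of calmodulin, the calcium sensor of SK channels, was at 1946, 1094 and 1169 CPM in IP, against 1723 CPM in the Input, on both sides, with a log2 fold of -0.30 ± 0.35. Dlg2, a scaffold that clusters Kv1, was at 937, 1266 and 1087 CPM in IP, against 997 CPM, on both sides, with a log2 fold of 0.14 ± 0.34 that was negative with upper-quartile factors (-0.082) and library totals (-0.14). Of the 8 Kv1 partners 4 lay above the Input in all IP libraries and 1 below, beside 19.7% and 24.1% of all genes, and 0 were called.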

How the data were processed

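Whole-number counts per gene were deposited, 1 table per library with Entrez identifier and symbol, per the file headers. The submitters' processing notes name STAR 2.0.0e, HTSeq and mm10. The names of the tables also hold the word subread, so the counter is not settled, and the annotation, strand and handling of multiply mapped reads are not given in the sources used here. Reads of overlapping genes may therefore not be told apart.

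The 9 genes without a symbol (at most 0.0221% of a library's counts) were left out. In R 4.3.3 with edgeR 4.0.16, filterByExpr (minimum count 10) kept 14628 genes, all 62 members among them. Libraries were scaled by TMM (factors 0.974, 0.932 and 0.955 for IP and 1.15 for the Input), and IP was compared with Input by the two-sided quasi-likelihood F test, Benjamini-Hochberg adjusted over all genes kept, threshold 0.05. Only the IP libraries inform the spread (2 residual degrees of freedom, prior 17; biological coefficient of variation 0.787), and the single Input is taken to vary as they do. The SE is the log2 fold over the root of F. Libraries differed from each other by at least 85.2 in chi-square per degree of freedom, so none was a copy. The code was tested on simulated counts.

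Named in full were members past the threshold, the 2 members of each subfamily with the highest mean CPM, and in each the member with the largest log2 fold among those with all IP libraries on one side of the Input and at least 5 CPM in the higher group. Some of these genes, and some sequences, are counted in the totals but not reported here. The members and lists were chosen with earlier results of these data known. Exon lengths, coordinates and coding sequences are from GENCODE M21 (GRCm38), the length being the union of annotated exons, and the longest coding sequence of each gene was searched. Alternatives were DESeq2 1.42.0, limma-voom (limma 3.58.1), RLE and upper-quartile factors, library totals, other filters, a robust prior, a threshold of 0.01, leaving out each IP library, and a member minimum of 20 counts.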

Additional observations from a re-analysis of the deposited data

How the results depend on the processing

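No member was called under any alternative tried. Of the 28 members given in full, 22 kept their sign in each of the 12 alternatives that could be run for them. For Kcns3 and Kcnh4 this leaves out the minimum mean of 5 CPM. The robust prior and the threshold of 0.01 leave log2 folds as they were, so no sign could turn under them. The stricter threshold could not add a call either. The count of genes called, 68 over all genes, was 180 with DESeq2, 108 with no low-count filter and 39 at an adjusted p under 0.01, and 90 to 211 when an IP library was left out, the most without IP 1 and 105 without IP 2. The split of calls, 61 higher and 7 lower, stood at 50 and 15 under library totals, 51 and 15 under upper-quartile factors and 36 and 14 with limma-voom. Members below the Input in all IP libraries, 12, were 5 at a mean of at least 5 CPM, where 48 of 62 members were tested. That filter took out Kcna5, Kcng2, Kcng4, Kcns3, Kcnh4, Kcnj13 and Kcnk12, all below the Input. With an IP library left out they were 17 to 21, where only 2 libraries had to lie below (21 without IP 2, 19 without IP 3). Members above it in all IP libraries, 15, numbered 12 by upper-quartile scaling or by library totals, which put Kcnab2, Kcns2 and Kcnh7 on both sides. Members below it in all IP libraries, 12, numbered 15 by upper-quartile scaling and 17 by library totals, so the larger group was then the one below. The median log2 fold of members, 0.028, was -0.12 with limma-voom, -0.19 with upper-quartile factors and -0.25 with library totals, beside -0.14, -0.13 and -0.19 over all genes, and -0.098 to 0.10 with an IP library left out. These scalings move every gene, and the filter on the mean removes members. The cause of the remaining moves was not tested.

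Signs turned for 6 members and for Dlg2. With library totals the log2 fold was -0.050 for Kcnb2, -0.24 for Kcnk1, -0.25 for Kcnq5, -0.25 for Kcnt1 and -0.14 for Dlg2. With upper-quartile factors it was -0.19 for Kcnk1, -0.20 for Kcnq5, -0.19 for Kcnt1 and -0.082 for Dlg2. With limma-voom it was -0.061 for Kcnk1 and -0.15 for Kcnt1, and at a mean of at least 5 CPM -0.078 for Kcnk1, -0.096 for Kcnq5 and -0.083 for Kcnt1. Over the 3 fits that each leave out an IP library, the log2 fold spanned -0.27 to 0.34 for Kcnk1, -1.17 to 0.13 for Kcnk2, -0.052 to 0.71 for Kcnn2, -0.16 to 0.091 for Kcnq5 and -0.41 to 0.20 for Kcnt1. A minimum of 20 counts left 61 members. Of 132 subfamily medians under the alternatives 111 moved by less than the spread taken for that subfamily. That count includes the robust prior, under which no median could move. A median within the spread could still turn sign. That of the inward rectifiers went from -0.13 to 0.13 without IP 3, and that of SK from -0.22 to 0.15 without IP 2. No paired analysis was possible because the single Input carries no replicate number. Low counts limit members of a few CPM, and the lone Input limits every comparison.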
